A study of Saccharomyces cerevisiae with 24 samples.

Results

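Transcript levels of the proteasome were followed through 33 genes of Saccharomyces cerevisiae, namely the genes of 32 subunits and RPN4, which encodes the transcription factor that activates them. The genes were chosen by name. Their locus tags were looked up in the RefSeq gene table of assembly R64 and matched to the systematic names of the array probes, and all 33 matched with 1 probe each among 6256 probes. The subunits divide into 14 of the core particle, with 7 in the alpha ring and 7 in the beta ring, and 18 of the regulatory particle, with 6 ATPases, 4 other proteins of the base and 8 of the lid. All 33 probes were well above background on each of the 24 arrays and all were tested.

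The proteasome is the protease that degrades proteins marked with ubiquitin chains. Its core particle is a barrel of stacked rings, with the proteolytic sites on beta subunits inside and the gate formed by the alpha subunits. The regulatory particle caps the barrel, where its receptors bind ubiquitin chains, its lid removes them and its ring of ATPases unfolds the substrate and feeds it into the barrel. Rpn4 binds a shared promoter element of most proteasome genes and is itself a short-lived substrate of the proteasome, which makes a feedback loop known from budding yeast.

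The arrays compared 3 strains of the W303 background in 2 media to find genes that depend on Sef1, a zinc cluster transcription factor. The wild type (WT, strain JYL03) is MATa, and mutant alleles of his3, trp1, ura3, ade2, leu2 and can1 are shared by all 3 strains. In sef1 (strain W303ScSef1NA1) SEF1 was replaced by the NatMX4 marker, and in SEF1-VP16 (strain W303ScSef1VP16NB1-4) the C-terminus of Sef1 is fused to the viral VP16 activation domain, which makes Sef1 hyperactive, so that each genotype is represented by 1 strain. Cultures grown overnight in YPD were brought to 0.2 OD600 per ml and kept at 30 °C for 5.5 h into log phase, either in YPD with glucose or in YPGly with glycerol, and each of the 6 groups had 4 biological replicates.

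The 75th percentile of probe intensity lay between 8927 and 16182 on the arrays from YPD and between 5320 and 14627 on the arrays from YPGly, no spot was saturated, and 92.0% to 98.3% of probes were well above background. The SEF1 probe was well above background on 4 of 4 arrays in each WT and SEF1-VP16 group and on 0 of 4 in each sef1 group. The arrays lay on 3 slides of 8. Slide 1 held WT and sef1 in YPD. Slide 2 held the SEF1-VP16 arrays of YPD and the WT arrays of YPGly, and slide 3 held the sef1 and SEF1-VP16 arrays of YPGly. On each slide the group named first filled row 1 and the group named second row 2. Within a slide, 2 strain comparisons could be made, namely sef1 with WT in YPD and SEF1-VP16 with sef1 in YPGly. Every comparison of the media within a strain crossed slides.

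A level below is the log2 intensity of a probe relative to the 75th percentile of its array. Levels of different probes were not compared, because probes differ in how well they bind. A gene was called when limma gave a Benjamini-Hochberg adjusted p under 0.05 over the 5641 tested probes together with a difference of at least 1.5-fold, which is 0.585 on the log2 scale.

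RPN4 was higher in YPGly than in YPD in all 3 strains, and within each strain the media lay on different slides. In WT its level was 0.41, 0.39, 0.44 and 0.29 on the 4 arrays from YPD and 0.82, 0.97, 0.92 and 0.84 on those from YPGly. In sef1 it was 0.31, 0.37, 0.31 and 0.27 in YPD and 0.88, 0.84, 0.99 and 1.05 in YPGly. In SEF1-VP16 it was 0.40, 0.47, 0.56 and 0.67 in YPD and 1.00, 0.82, 0.84 and 0.72 in YPGly. The media did not overlap within any strain, nor over the 24 arrays together, on which the highest YPD level was 0.67 and the lowest YPGly level 0.72.

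The difference in RPN4 between the media was 0.50 ± 0.07 (SE, n = 4 arrays a group) in WT, or 1.42-fold, with a limma adjusted p of 7.2e-05. It was 0.62 ± 0.06 in sef1, or 1.54-fold, with a limma adjusted p of 1.6e-06, and 0.33 ± 0.08 in SEF1-VP16, or 1.25-fold, with a limma adjusted p of 0.0030. RPN4 was thus called in sef1, where scaling to the array median (0.55) or by quantiles (0.56) took it below the fold minimum, while in WT and SEF1-VP16 it passed the adjusted p and not the fold minimum. Values come from RNA of whole cultures, in which less RNA per cell and fewer cells with that RNA cannot be told apart.

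**Figure D1:**
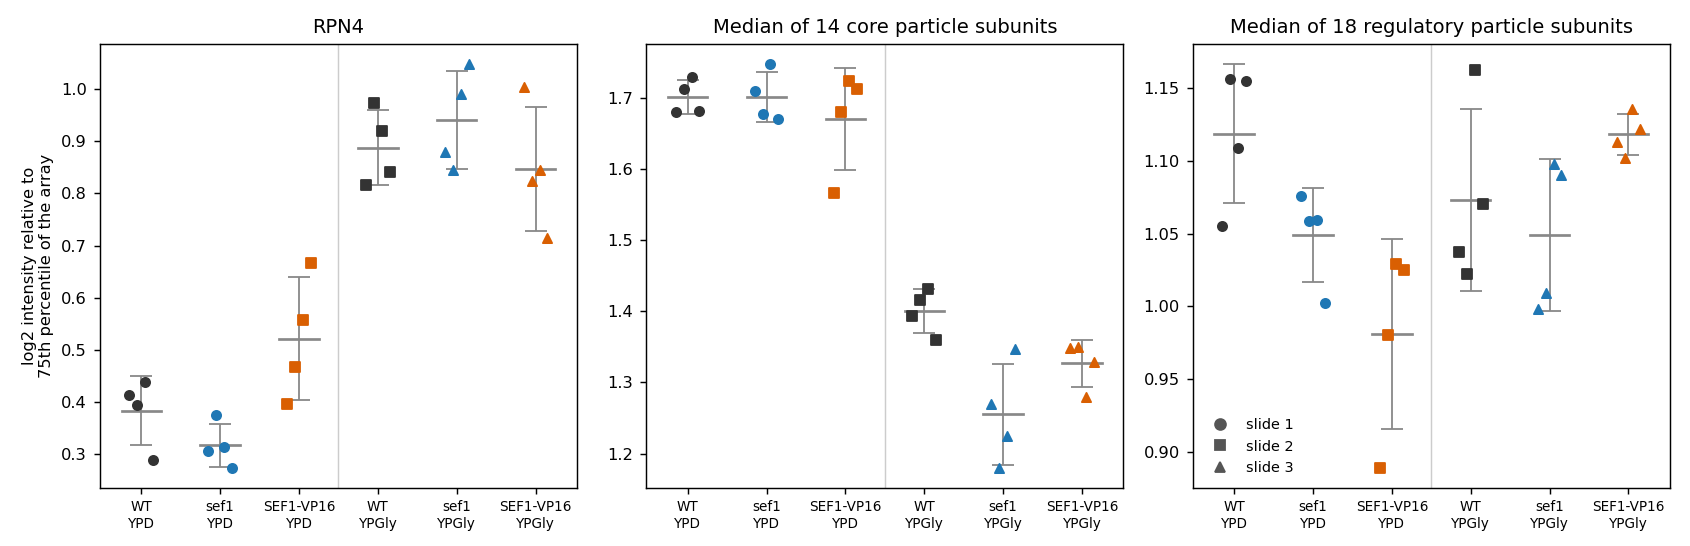
Level of RPN4 (left), median level of the 14 core particle subunits (middle) and median level of the 18 regulatory particle subunits (right) on each array, as log2 intensity relative to the 75th percentile of the array, by strain and medium. Each point is 1 array with its slide given by the symbol, and the bars show the mean and SD of 4 arrays. All 12 YPGly arrays lie above all 12 YPD arrays for RPN4 and below them for the core particle, and the media overlap for the regulatory particle. Within each strain the media lie on different slides.

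The core particle was lower on the arrays from YPGly, where slide and medium change together. The median level of its 14 subunits was 1.70 ± 0.02 (SD, n = 4 arrays) in WT, 1.70 ± 0.04 in sef1 and 1.67 ± 0.07 in SEF1-VP16 in YPD, and 1.40 ± 0.03, 1.26 ± 0.07 and 1.33 ± 0.03 in the same order in YPGly. The 12 YPD arrays ran from 1.57 to 1.75 and the 12 YPGly arrays from 1.18 to 1.43, with no overlap. The median of the 18 regulatory particle subunits ran from 0.89 to 1.16 in YPD and from 1.00 to 1.16 in YPGly, so that the media overlapped. In the fit with slide as a further term, described below, the medium difference had a median of −0.06 over the core particle and 0.05 over the regulatory particle, and RPN4 did not pass the adjusted p.

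Whether the proteasome genes depend on Sef1 was read from the 6 strain comparisons, in which 0 of 33 genes were called. The same rule called 0.674% of all tested probes in YPD when sef1 was set against WT, 9.15% when SEF1-VP16 was and 3.14% when SEF1-VP16 was set against sef1. In YPGly the corresponding shares were 0.798%, 1.10% and 3.08%. Of the 33 genes, 0, 6, 4, 5, 1 and 16 had an unadjusted p under 0.05 in the 6 comparisons in that order. Among all 5641 tested probes the numbers were 1527, 3059, 2897, 1202, 919 and 2136. The unpaired test of the study's methods also called 0 of the 33 genes in each.

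The intervals were narrow, but they hold only the scatter between arrays of a group and no slide effect. They therefore bound a strain difference apart from the slide only in the 2 comparisons made within a slide, which were named above. Even in these 2, strain and slide row changed together. In the other comparisons strain and slide changed together. Adding the slide gives the fit 6 terms for 6 groups. Each strain difference then comes from the 2 within-slide comparisons alone and is the same in both media. Some values had another sign there, as given below, but they do not test the differences that cross slides. In each of the 6 strain comparisons the 95% confidence interval of each of the 33 genes lay within 1.5-fold in either direction, against 78.9% to 93.5% of all tested probes. The bound farthest below zero was −0.47, for sef1 against WT in YPGly, and the bound farthest above was 0.41, for SEF1-VP16 against sef1 in YPGly. The middle 50% of the 33 genes spanned 0.09, 0.11 and 0.06 on the log2 scale in the YPD comparisons in the order above and 0.09, 0.10 and 0.10 in the YPGly comparisons, where all tested probes spanned 0.20, 0.38, 0.28, 0.19, 0.18 and 0.27.

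**Figure D2:**
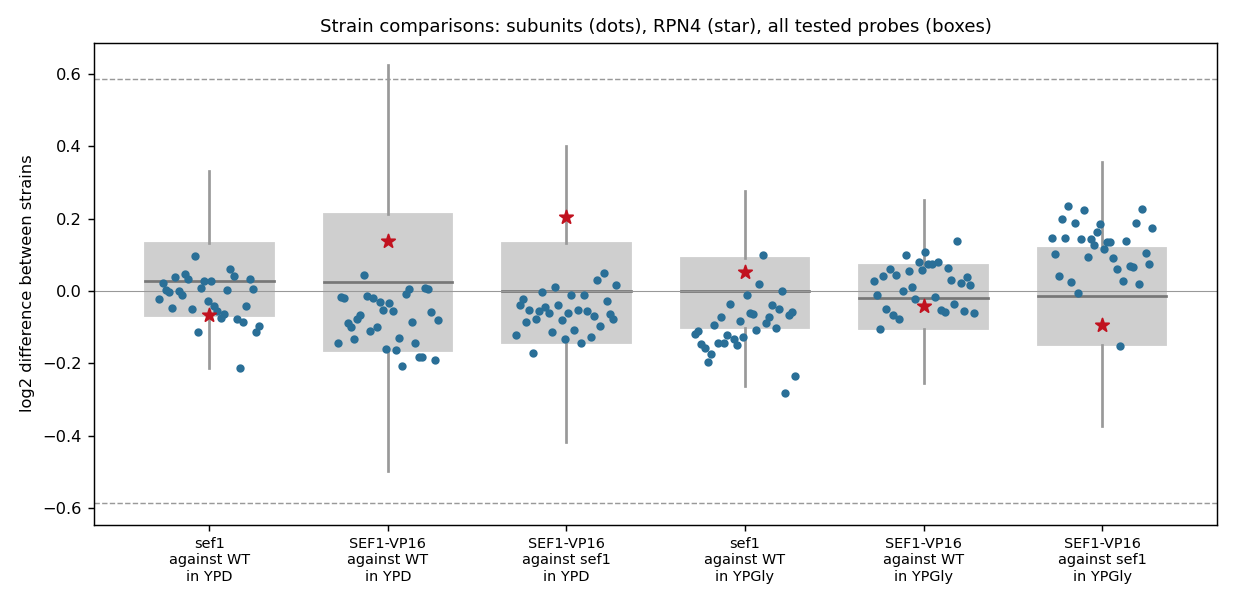
Log2 difference between strains for the 32 subunits (blue dots) and RPN4 (red star) in the 6 strain comparisons, against all tested probes (grey box from the 25th to the 75th percentile with the median, lines to the 5th and 95th percentiles). Dashed lines mark 1.5-fold. All 33 genes stay inside the dashed lines in each comparison, and the subunits lie mostly below zero for sef1 against WT in YPGly and mostly above zero for SEF1-VP16 against sef1 in YPGly.

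Small differences passed the adjusted p alone in 4 of the strain comparisons. In YPD, 5 subunits were lower in SEF1-VP16 than in WT, against 22.0% of all tested probes. They were RPN1 (−0.21 ± 0.07), a scaffold of the base that docks ubiquitin receptors, RPN6 (−0.18 ± 0.06), a lid subunit that contacts the core particle, the ATPases RPT2 and RPT5 (−0.16 ± 0.05 each) and RPN3 of the lid (−0.14 ± 0.05). With limma adjusted p from 0.029 to 0.041, the differences were at most 1.15-fold, and the arrays overlapped for RPN1. The groups lay on different slides. With the slide added the fit gave −0.0020 for RPN1 and 0.10 for RPN6. Those values come from the within-slide comparisons, and no level of SEF1-VP16 in YPD enters them. RPN1 did not pass the adjusted p with quantile normalization.

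In YPD the RPN4 level of SEF1-VP16 exceeded that of sef1 by 0.20 ± 0.06 (limma adjusted p = 0.018), with all 4 SEF1-VP16 arrays above all 4 sef1 arrays. It was the only 1 of the 33 genes higher there by adjusted p, against 22.7% of all tested probes, and RPN1, RPT2 and RPN13 were lower, against 21.4%. This comparison crosses slides, and adding the slide to the fit turned the value to −0.094. Against WT in YPD, RPN4 differed by −0.07 ± 0.05 in sef1 and by 0.14 ± 0.07 in SEF1-VP16, with overlapping arrays in both cases. In YPGly it differed from WT by 0.05 ± 0.07 in sef1 and by −0.04 ± 0.08 in SEF1-VP16, and SEF1-VP16 differed from sef1 by −0.09 ± 0.08.

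In YPGly, RPN12, a lid subunit needed for the last step of lid assembly, was 0.23 ± 0.06 lower in sef1 than in WT (limma adjusted p = 0.045), the only 1 of the 33 genes to pass in that direction, against 1.81% of all tested probes. The groups lay on different slides, and RPN12 did not pass with quantile normalization or with normexp. With the slide added the fit gave −0.098, which did not pass. That value is the YPD difference within slide 1, so it does not test the YPGly difference. PRE1, a structural beta subunit, was 0.22 ± 0.07 above sef1 in SEF1-VP16 (limma adjusted p = 0.039), the only 1 to pass in that direction, against 9.98%. Its levels were 0.56, 0.63, 0.50 and 0.51 in SEF1-VP16 and 0.32, 0.20, 0.32 and 0.46 in sef1, which did not overlap. PRE1 did not pass with normexp. This last comparison lies within a slide, with the strains in different rows. In it 30 of 33 differences were positive with a median of 0.13. Of all 5641 tested probes 2658 were positive, with a median of −0.01. The 33 genes were read on the same arrays and are not separate replicates.

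YPGly against YPD asks how the proteasome genes differ between respiratory and fermentative growth. By the study's methods the cultures in YPGly were harvested at a lower density, so density changed with the medium. Its part was not tested. Few of them reached the fold minimum in comparisons that called a large part of the array. In WT 0 of 33 were called, against 39.2% of all tested probes, and in SEF1-VP16 0 of 33, against 41.4%. In sef1 4 of 33 were called, against 38.8%. These 4 were RPN4, called higher where 19.4% of all tested probes were, and PUP3, PRE9 and PRE1, called lower where 19.4% were. At an unadjusted p under 0.05 there were 21 of the 33 genes in WT, 24 in sef1 and 19 in SEF1-VP16. Among all 5641 tested probes there were 4156, 4582 and 4526. The unpaired test of the study's methods called 0, 4 and 0 of the 33 genes.

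By adjusted p alone, 3 of the 33 genes were higher in WT and 17 lower, against 36.7% and 34.9% of all tested probes. In sef1 1 was higher and 23 lower, against 39.1% and 40.7%, and in SEF1-VP16 7 were higher and 12 lower, against 37.0% and 42.4%. The median difference of the 33 genes was −0.19 in WT, −0.22 in sef1 and −0.08 in SEF1-VP16, where the median of all tested probes was 0.01, −0.02 and −0.05. The 33 genes were also closer together than the rest of the array, since their middle 50% spanned 0.31, 0.39 and 0.39, against 0.89, 0.88 and 0.93 over all tested probes.

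The 3 strains were measured on separate arrays, so the direction of a gene could be compared between them, with the reservation on slides given below. Of the 33 genes, 12 were lower in YPGly by adjusted p in all 3 strains, against 30.2% of all tested probes, and 1 was higher in all 3, against 28.8%. The 12 were SCL1, PRE8, PRE9, PRE10, PUP3, PRE1, PRE4, RPN2, RPN13, RPN5, RPN7 and RPN12, and the 1 was RPN4. PUP1 and RPN1 passed in none of the strains, and 0 genes passed in opposite directions in different strains.

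**Figure D3:**
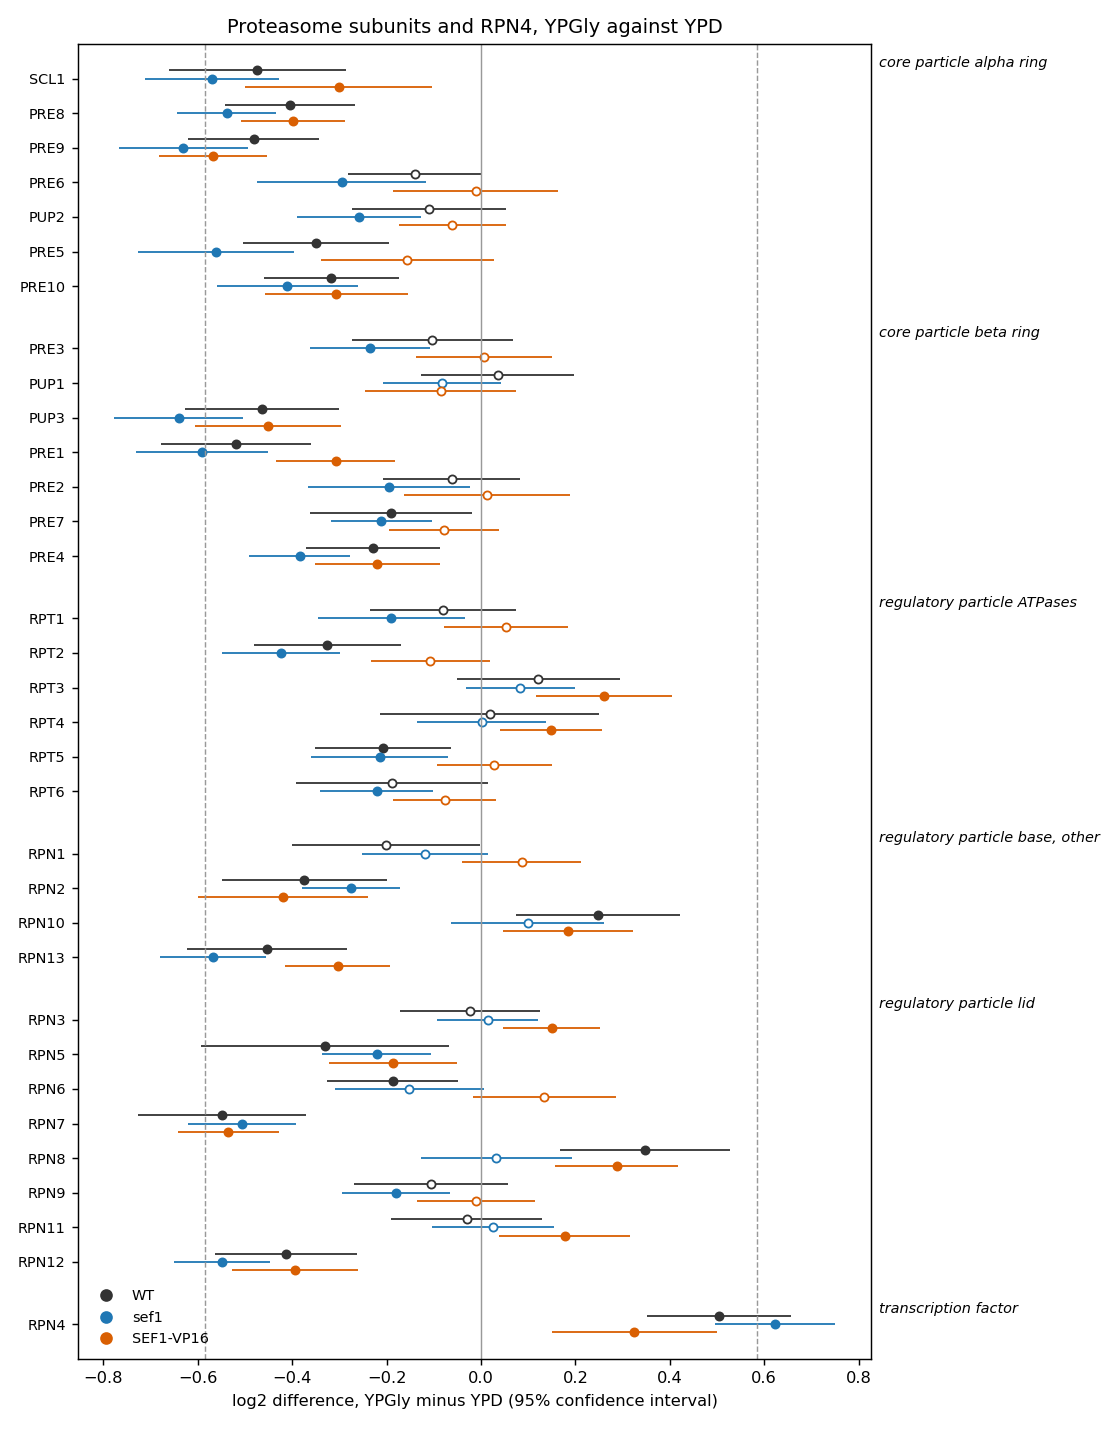
Log2 difference between YPGly and YPD for the 33 genes in WT (black), sef1 (blue) and SEF1-VP16 (orange), grouped by the part of the proteasome. Points are fitted differences of 4 against 4 arrays, filled where the adjusted p is under 0.05, with 95% confidence intervals, and dashed lines mark 1.5-fold. The alpha ring lies on the negative side throughout, the ATPases lie on both sides of zero, and RPN4 is the most positive of the 33 in each strain.

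The alpha ring forms the gated ends of the barrel. All 7 of its genes had a lower mean level in YPGly in each strain, and the median difference was −0.35 in WT, −0.54 in sef1 and −0.30 in SEF1-VP16. By adjusted p 5, 7 and 4 of the 7 were lower, against 34.9%, 40.7% and 42.4% of all tested probes. PRE9, the one alpha subunit that yeast can live without, had the most negative difference of the ring in each strain, with −0.48 ± 0.06, −0.63 ± 0.06 and −0.57 ± 0.05.

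PRE9 read 1.86, 1.93, 2.00 and 1.95 in YPD and 1.43, 1.43, 1.49 and 1.46 in YPGly in WT. In sef1 it read 1.93, 1.86, 2.04 and 1.92 in YPD and 1.41, 1.21, 1.25 and 1.35 in YPGly. In SEF1-VP16 it read 1.83, 1.96, 1.95 and 1.92 in YPD and 1.34, 1.37, 1.31 and 1.38 in YPGly. The YPGly arrays were the low ones in every strain, without overlap.

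The other alpha subunits followed in a graded way. SCL1 differed by −0.47, −0.57 and −0.30 in WT, sef1 and SEF1-VP16, PRE8 by −0.40, −0.54 and −0.40, and PRE10 by −0.32, −0.41 and −0.31, all of which passed the adjusted p. PRE5 differed by −0.35, −0.56 and −0.16, the last without passing (limma adjusted p = 0.10). PRE6 (−0.14, −0.30 and −0.01) and PUP2 (−0.11, −0.26 and −0.06) passed in sef1 alone.

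In the beta ring the genes of the 3 catalytic subunits stayed near zero in WT and SEF1-VP16. PRE3, PUP1 and PRE2 encode the caspase-like, trypsin-like and chymotrypsin-like active sites. In WT their differences were −0.10 ± 0.08, 0.04 ± 0.07 and −0.06 ± 0.07, and in SEF1-VP16 they were 0.01 ± 0.07, −0.09 ± 0.07 and 0.01 ± 0.08, none of which passed. In sef1 PRE3 (−0.24 ± 0.06) and PRE2 (−0.20 ± 0.08) passed the adjusted p and PUP1 (−0.08 ± 0.06) did not.

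Among the 4 structural beta subunits, PUP3 and PRE1 had the most negative differences in each strain. PUP3 read 2.03, 2.10, 2.18 and 1.96 in YPD and 1.53, 1.70, 1.60 and 1.58 in YPGly in WT. In sef1 it read 2.11, 2.01, 2.21 and 2.05 in YPD and 1.46, 1.38, 1.42 and 1.57 in YPGly. The groups were apart in both strains, by 0.46 ± 0.07 and 0.64 ± 0.06 toward lower levels in YPGly, and in SEF1-VP16 the difference was −0.45 ± 0.07.

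PRE1 read 0.94, 1.02, 0.95 and 0.96 in YPD and 0.58, 0.48, 0.34 and 0.39 in YPGly in WT, a difference of −0.52 ± 0.07. In sef1 the difference was −0.59 ± 0.06, just past the fold minimum of 0.585, and in SEF1-VP16 it was −0.31 ± 0.06. PRE1 in sef1 was no longer called without sef1 in YPGly replicate 2 or without any of the sef1 in YPD replicates 1, 2 and 3, where its difference was −0.55 to −0.58. PRE4 differed by −0.23, −0.38 and −0.22, all passing, and PRE7 by −0.19, −0.21 and −0.08, the last without passing.

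**Figure D4:**
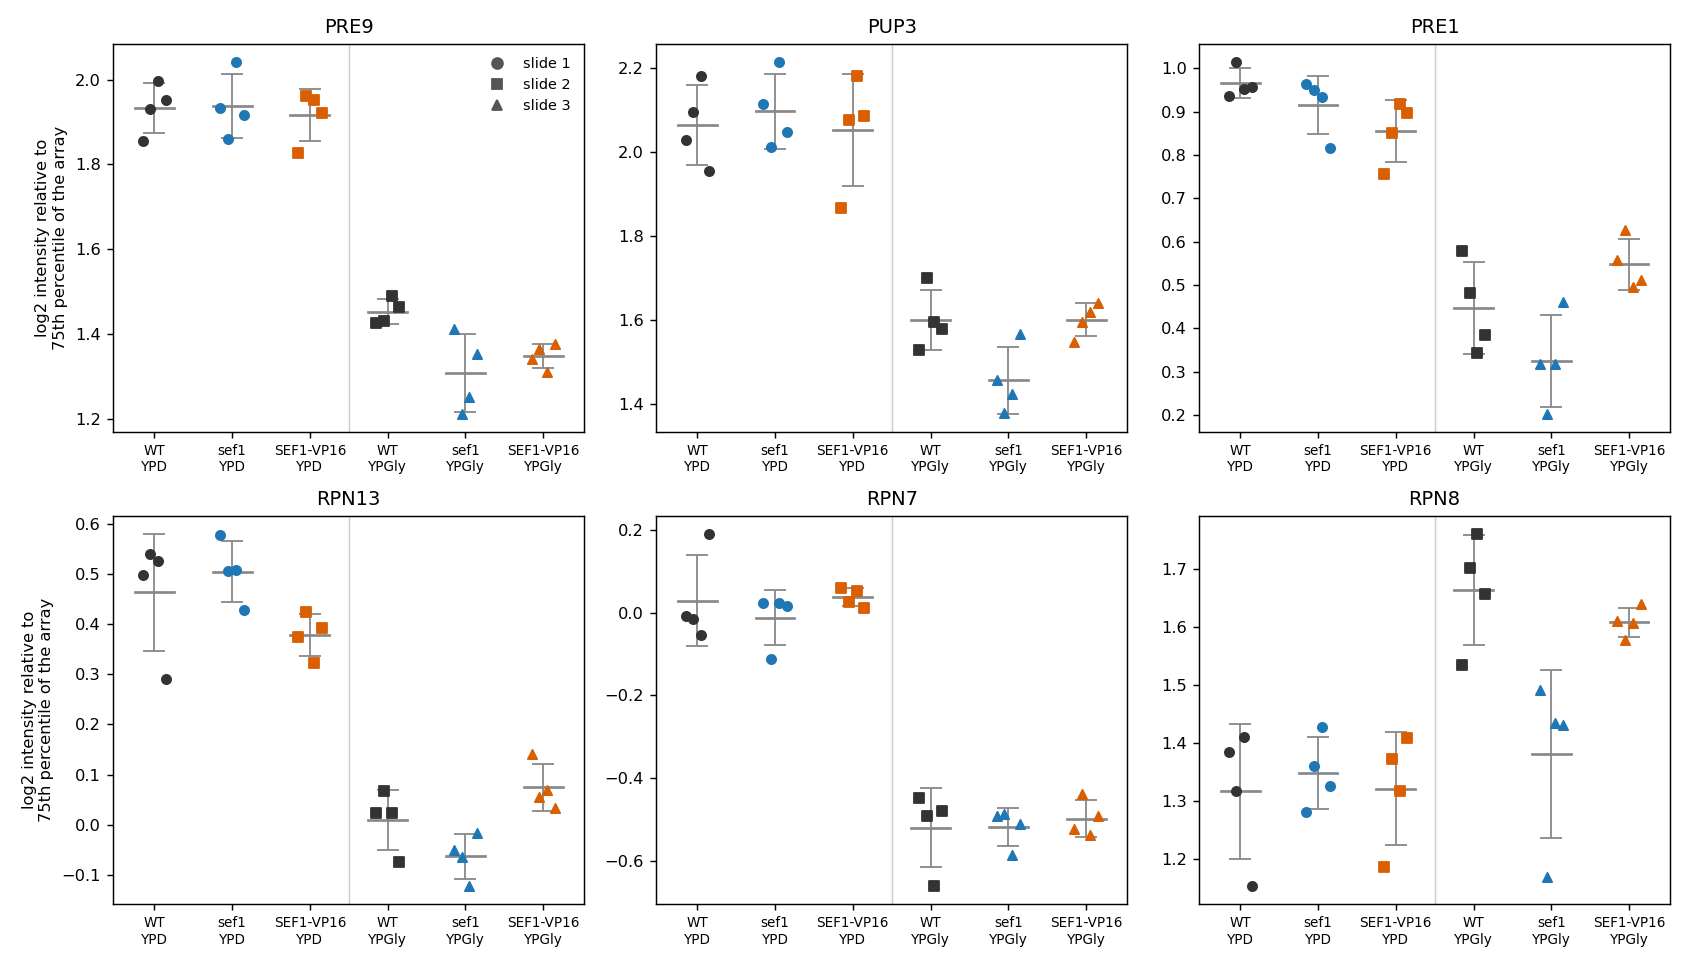
Levels of the core particle genes PRE9, PUP3 and PRE1 (top) and the regulatory particle genes RPN13, RPN7 and RPN8 (bottom) on each array, as log2 intensity relative to the 75th percentile of the array, by strain and medium. Each point is 1 array with its slide given by the symbol, and the bars show the mean and SD of 4 arrays. In YPGly 5 of the 6 genes are lower in each strain, and RPN8 is higher in WT and SEF1-VP16 with overlapping arrays in sef1.

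The ATPase genes of the regulatory particle lay on both sides of zero. Their median difference was −0.13 in WT, −0.20 in sef1 and 0.04 in SEF1-VP16. RPT2, the ATPase that opens the gate of the alpha ring, had the most negative value in each strain, with −0.33 ± 0.07, −0.42 ± 0.06 and −0.11 ± 0.06, of which the first and the second passed. RPT5, also a gate-opening ATPase, was lower by 0.21 in both WT and sef1 and differed by 0.03 in SEF1-VP16.

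RPT3 and RPT4 passed in SEF1-VP16 alone, where they were higher by 0.26 ± 0.06 and 0.15 ± 0.05. RPT1 and RPT6 passed in sef1 alone, where they were lower by 0.19 ± 0.07 and 0.22 ± 0.05. The 6 ATPases thus held 2, 4 and 0 genes lower and 0, 0 and 2 higher by adjusted p in WT, sef1 and SEF1-VP16. Of all tested probes 34.9%, 40.7% and 42.4% were lower and 36.7%, 39.1% and 37.0% higher.

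The other proteins of the base divided by gene. RPN13, a ubiquitin receptor, was lower in YPGly by 0.45 ± 0.08, 0.57 ± 0.05 and 0.30 ± 0.05 in WT, sef1 and SEF1-VP16, and RPN2, the scaffold on which Rpn13 sits, by 0.37 ± 0.08, 0.28 ± 0.05 and 0.42 ± 0.08. RPN10, also a ubiquitin receptor, was higher by 0.25 ± 0.08 in WT and 0.18 ± 0.06 in SEF1-VP16 and differed by 0.10 ± 0.07 in sef1. RPN1 differed by −0.20 ± 0.09, −0.12 ± 0.06 and 0.09 ± 0.06 and passed in none. The genes of the receptors Rpn13 and Rpn10 therefore did not share a direction.

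The lid held the most negative and the most positive subunit difference of WT. RPN7, a lid subunit of the PCI family, which builds the scaffold of the lid, read −0.01, −0.02, −0.05 and 0.19 in YPD and −0.45, −0.49, −0.66 and −0.48 in YPGly in WT. Its difference was −0.55 ± 0.08 in WT, −0.51 ± 0.05 in sef1 and −0.54 ± 0.05 in SEF1-VP16, close to one value in all 3 strains and short of the fold minimum in each. RPN12 differed by −0.41, −0.55 and −0.39 and RPN5, also of the PCI family, by −0.33, −0.22 and −0.19, all of which passed.

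RPN8, the inactive partner of the deubiquitinase Rpn11, read 1.39, 1.32, 1.41 and 1.15 in YPD and 1.54, 1.70, 1.76 and 1.66 in YPGly in WT. In SEF1-VP16 it read 1.19, 1.37, 1.32 and 1.41 in YPD and 1.61, 1.58, 1.61 and 1.64 in YPGly. In sef1 it read 1.28, 1.36, 1.43 and 1.33 in YPD and 1.49, 1.17, 1.43 and 1.43 in YPGly. The YPGly arrays were the high ones without overlap in WT (0.35 ± 0.08) and SEF1-VP16 (0.29 ± 0.06), and the media overlapped in sef1 (0.03 ± 0.07).

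RPN11, whose protein cleaves ubiquitin chains from the substrate, passed in SEF1-VP16 alone with 0.18 ± 0.06, as did RPN3 with 0.15 ± 0.05. RPN6 passed in WT alone with −0.19 ± 0.06, and its difference was −0.15 ± 0.07 in sef1 and 0.13 ± 0.07 in SEF1-VP16. RPN9 passed in sef1 alone with −0.18 ± 0.05. The median difference over the 8 lid genes was −0.15 in WT, −0.17 in sef1 and 0.06 in SEF1-VP16.

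All values between media carry the slide with them. Only slide 2 held both media, as WT in YPGly beside SEF1-VP16 in YPD, so strain, medium and slide row differ together there. In this comparison, added after the data had been seen, limma called 0 of 33 genes, against 41.2% of all tested probes. At an unadjusted p under 0.05 there were 17 of the 33, against 4433 of the 5641 tested probes. By adjusted p 4 were higher, against 36.9%, and 13 lower, against 40.6%. RPN4 was 0.37 ± 0.07 higher in the YPGly arrays, RPN7 was 0.56 ± 0.06 lower, PRE9 0.46 ± 0.05 lower, PUP3 0.45 ± 0.08 lower and PRE1 0.41 ± 0.07 lower, and RPN8 was 0.34 ± 0.07 higher. The median of the core particle was −0.21 and that of the regulatory particle −0.04.

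A fit of all 24 arrays with strain, medium and slide as terms, also added after the data had been seen, gave smaller values for several of these genes. RPN4 differed between the media by 0.21 ± 0.11 (limma adjusted p = 0.12), PUP3 by −0.28 ± 0.11, PRE1 by −0.24 ± 0.10 (limma adjusted p = 0.052) and PRE9 by −0.42 ± 0.09. RPN7 differed by −0.58 ± 0.10 and RPN8 by 0.60 ± 0.12, and RPN8 was the 1 gene of 33 called, against 41.0% of all tested probes. By adjusted p alone 3 were higher, against 31.4%, and 6 lower, against 31.9%, and the median of the 33 genes was 0.03. In the core particle 3 of 14 genes passed, all lower (PRE9, PUP3 and PRE8), and the median was −0.06, against −0.27, −0.40 and −0.19 in WT, sef1 and SEF1-VP16 without the slide. PRE6 (0.14 ± 0.13), PUP2 (0.09 ± 0.10), PRE5 (0.06 ± 0.13), PRE3 (0.14 ± 0.11) and PRE2 (0.15 ± 0.13) had positive values that did not pass. The median of the regulatory particle was 0.05. This fit assumes that strain and medium add up. A strain difference that depends on the medium cannot be told apart from the slide in it. With 6 terms for 6 groups, the fit leaves nothing with which to check the assumption. Its RPN8 value lay above those of WT, sef1 and SEF1-VP16 without the slide (0.35, 0.03 and 0.29). RPN8 also passed the adjusted p in the interaction of SEF1-VP16 with sef1, given below. Array brightness also moved with the medium, as the percentiles given above show, and its part in the differences was not tested.

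Interactions fitted over 16 arrays each asked whether the strains differed by another amount in YPGly than in YPD. Of the 33 genes 0 were called in each of the 3, where the calls among all tested probes came to 0.886% with sef1 and WT, 10.6% with SEF1-VP16 and WT and 8.62% with SEF1-VP16 and sef1. With limma the number of the 33 genes at an unadjusted p under 0.05 was 2, 7 and 21, against 922, 2425 and 2639 of the 5641 tested probes. Each of the 3 interactions crosses slides.

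By adjusted p alone, 3 genes had a more positive SEF1-VP16 to WT difference in YPGly than in YPD, against 12.9% of all tested probes, namely RPN6 (0.32 ± 0.09), RPN1 (0.29 ± 0.10) and RPT5 (0.24 ± 0.08). For SEF1-VP16 against sef1, 10 genes had a more positive difference in YPGly, against 16.7%, and RPN4 alone had a more negative one, against 20.7%. The 10 were led by PRE5 (0.40 ± 0.11) and RPT2 (0.32 ± 0.08), and the others were PRE1, RPN6, RPN13, RPN8, RPT5, RPT1, PRE3 and PUP2 with 0.20 to 0.29. RPN4 had −0.30 ± 0.10 (limma adjusted p = 0.025), and its levels in SEF1-VP16 were above those of sef1 in YPD and overlapped with them in YPGly. Its other interactions, 0.12 ± 0.08 between sef1 and WT and −0.18 ± 0.10 between SEF1-VP16 and WT, did not pass.

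The rest of the pathway was described through 38 genes in 4 lists. In the strain comparisons 1 of the 38 was called, TMA17, and it was lower in SEF1-VP16 than in WT in YPD, where 9.15% of all tested probes were called. Between the media 11 of the 38 were called in WT (7 higher and 4 lower), 16 in sef1 (9 and 7) and 14 in SEF1-VP16 (9 and 5). The shares of all tested probes were 39.2%, 38.8% and 41.4%. The median difference of the 38 was 0.11, 0.08 and 0.18.

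Genes of proteasome-associated proteins included the highest value of the 38 in each strain, that of SPG5. SPG5, needed for proteasome assembly in stationary phase, read 0.32, 0.30, 0.15 and 0.41 in YPD and 2.34, 2.21, 2.41 and 2.20 in YPGly in WT. That was a rise of 1.99 ± 0.08, or 3.98-fold, and SPG5 rose by 2.04 ± 0.06 in sef1 and 2.53 ± 0.06 in SEF1-VP16. BLM10, an activator that caps the core particle in place of the regulatory particle, rose by 1.17 ± 0.11, 1.14 ± 0.07 and 1.29 ± 0.08, and FUB1, which encodes a core particle binding protein, by 0.98 ± 0.09, 0.94 ± 0.06 and 1.20 ± 0.06. HUL5, a ubiquitin ligase that extends chains on bound substrates, fell by 0.82 ± 0.08, 0.67 ± 0.05 and 0.64 ± 0.06. Of the 7 genes in this list 3 were called higher and 1 lower in each strain, against 39.2%, 38.8% and 41.4% of all tested probes called.

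Enzymes and carriers of ubiquitin included a pair that went in opposite directions. UBC5 rose by 1.32 ± 0.07, 1.19 ± 0.06 and 1.68 ± 0.05 and UBC4 fell by 0.78 ± 0.10, 1.04 ± 0.07 and 0.97 ± 0.11 in WT, sef1 and SEF1-VP16. They encode near-identical ubiquitin conjugating enzymes, and how far their probes cross-hybridise was not tested. UFD1, a cofactor of the unfoldase Cdc48, and CUZ1, a zinc finger protein that binds Cdc48 and the proteasome, were called lower in all 3 strains. When the slide was added to the fit, UFD1 kept its call (−0.62 ± 0.16) and CUZ1 did not (−0.44 ± 0.10). CDC48 itself differed by −0.14 ± 0.09, −0.26 ± 0.18 and 0.29 ± 0.13 and passed in none. Of the 14 genes in this list, 1, 2 and 3 were called higher and 3, 4 and 3 lower, against 39.2%, 38.8% and 41.4% of all tested probes called.

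Rpn4 itself is controlled by the factors that transcribe its gene and by the ligase that marks it for degradation. Of the activators, PDR1 rose by 0.74 ± 0.09 in WT and 0.71 ± 0.05 in sef1 and was 0.33 ± 0.05 higher without being called in SEF1-VP16, and PDR3 was alike with 0.70, 0.64 and 0.34. YAP1 was called in sef1 (0.62 ± 0.05) and SEF1-VP16 (0.84 ± 0.05), with 0.58 ± 0.08 in WT, and HSF1 differed by 0.05, 0.05 and 0.10 without passing. Of the ligase, UBR2 rose by 0.69 ± 0.09, 0.78 ± 0.05 and 0.80 ± 0.07, the conjugating enzyme gene RAD6 fell by 0.78 ± 0.05 in sef1 and 0.77 ± 0.08 in SEF1-VP16 with −0.46 ± 0.11 in WT, and MUB1 passed in none. When the slide was added to the fit, PDR1 (0.36 ± 0.11), PDR3 (0.40 ± 0.10) and RAD6 (−0.45 ± 0.15) stayed below the fold minimum, and UBR2 (0.71 ± 0.12) and YAP1 (0.79 ± 0.10) were called. Of the 7 genes in this list, 3, 4 and 2 were called higher and 0, 1 and 1 lower between the media without the slide term. The shares of all tested probes called were 39.2%, 38.8% and 41.4%.

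Of the 10 assembly chaperone genes, 0, 1 and 1 were called in WT, sef1 and SEF1-VP16, against 39.2%, 38.8% and 41.4% of all tested probes. ADD66, a chaperone of the alpha ring, was lower in all 3 strains, by 0.46 ± 0.06, 0.59 ± 0.06 and 0.42 ± 0.05, and was called in sef1, with −0.30 ± 0.09 and no call when the slide was added to the fit. TMA17, a chaperone of the ATPase ring, stood apart among the chaperones. Its levels in YPD were 3.20, 3.12, 3.30 and 3.09 in WT, 3.03, 3.07, 3.12 and 2.96 in sef1 and 2.36, 2.60, 2.70 and 2.62 in SEF1-VP16. In YPGly they were 3.13, 3.29, 3.29 and 3.07 in WT, 3.04, 2.76, 3.06 and 3.36 in sef1 and 3.50, 3.36, 3.32 and 3.29 in SEF1-VP16. The SEF1-VP16 arrays from YPD were below all the others.

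TMA17 was 0.60 ± 0.08 lower in SEF1-VP16 than in WT in YPD (limma adjusted p = 2.8e-04), and its medium difference was 0.02 ± 0.08 in WT, 0.01 ± 0.11 in sef1 and 0.79 ± 0.08 in SEF1-VP16. It was called in the interactions of SEF1-VP16 with WT (0.77 ± 0.11) and with sef1 (0.78 ± 0.14), and with quantile normalization the latter was 0.47 and not called. Within slide 2, TMA17 was 0.62 ± 0.09 higher in WT in YPGly than in SEF1-VP16 in YPD. The YPD strain difference lost its call without SEF1-VP16 in YPD replicate 1 (−0.53) or without WT in YPD replicate 3 (−0.56). It also lost its call with quantile normalization (−0.56). With the slide added the fit gave 0.18 for SEF1-VP16 against WT. That value comes from the within-slide comparisons, and no level of SEF1-VP16 in YPD enters it.

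**Figure D5:**
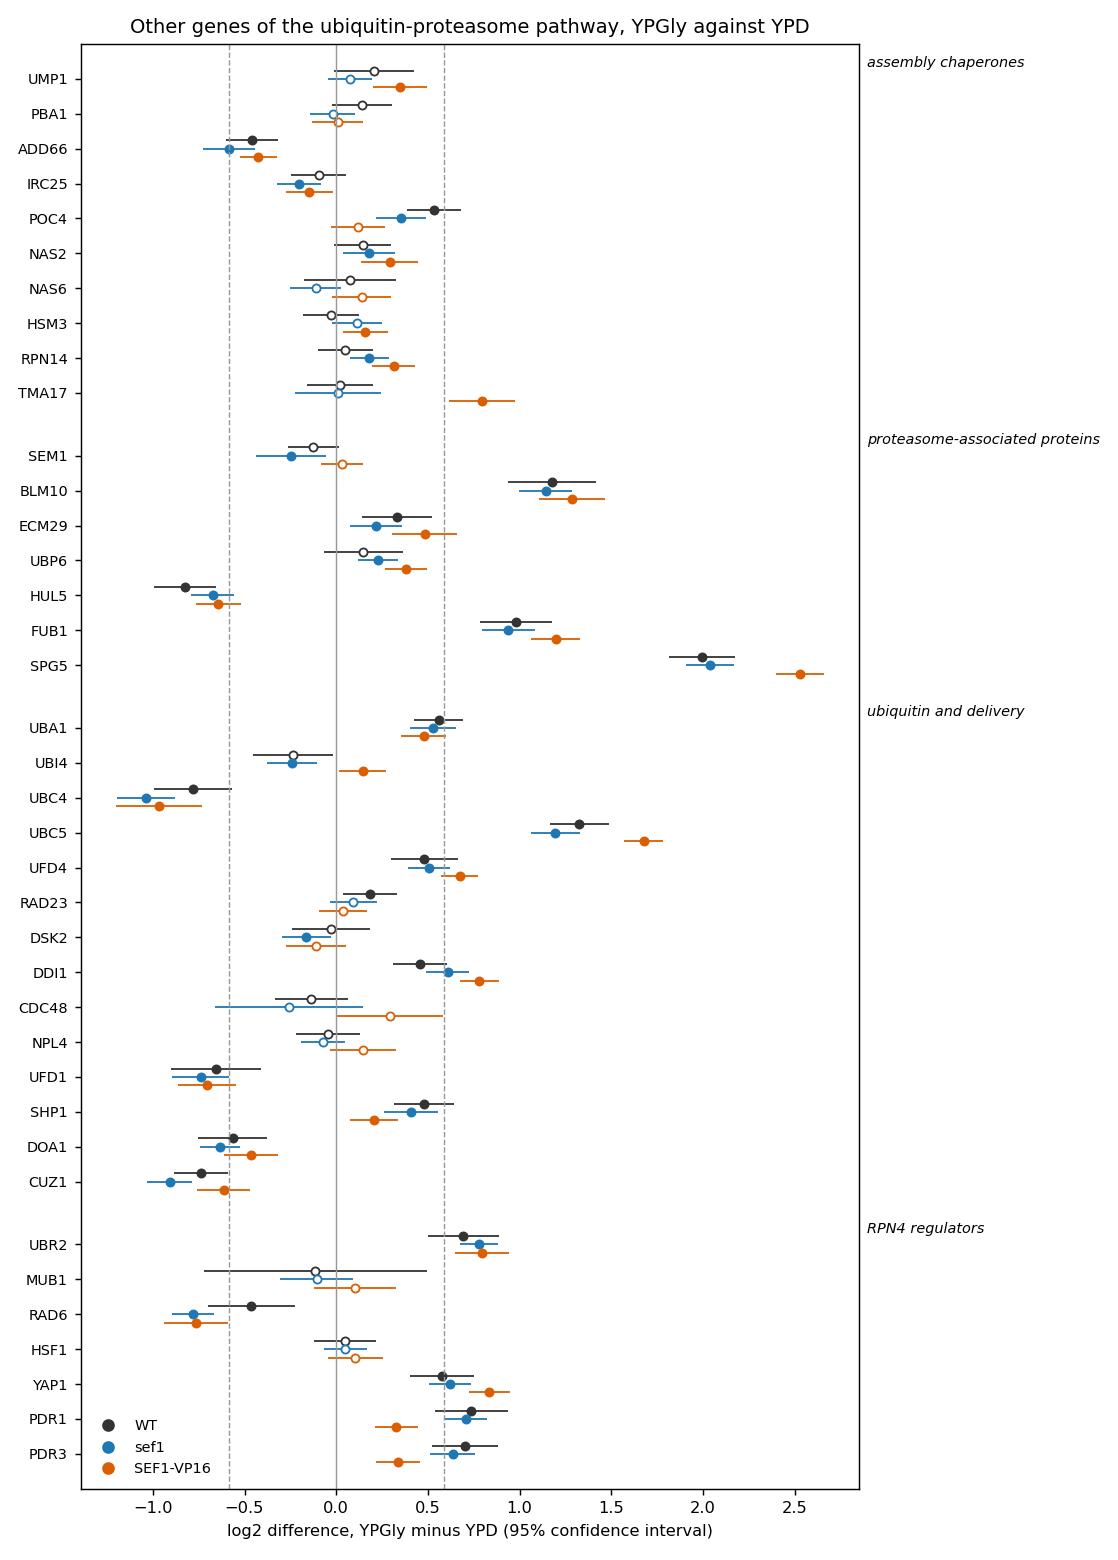
Log2 difference between YPGly and YPD for 38 other genes of the ubiquitin-proteasome pathway in WT (black), sef1 (blue) and SEF1-VP16 (orange), in 4 lists. Points are fitted differences of 4 against 4 arrays, filled where the adjusted p is under 0.05, with 95% confidence intervals, and dashed lines mark 1.5-fold. SPG5, UBC5, BLM10 and FUB1 lie farthest to the right in each strain, and UBC4 lies farthest to the left in sef1 and SEF1-VP16.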

How the data were processed

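Total RNA of 24 cultures was hybridised to single-colour Agilent yeast arrays. Per the file headers the deposited spot intensity values were background-corrected by Agilent Feature Extraction 10.5.1.1. The authors also deposited log2 values scaled to the 75th percentile of each array, which were used only as an alternative. Here the processed intensity was log2-transformed without the spots marked by the software as uneven or outlying (164 in all, leaving 15 missing values, 0 of them in the 33 genes), the 2 spots of a probe were averaged and the 75th percentile of the array was subtracted. Testing was limited to the 5641 probes with a group mean intensity of 200 or more in 1 group or more. Of the 6256 probes 5756 matched a locus tag of the RefSeq table.

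The 9 comparisons of 2 groups (8 arrays each) and 3 interactions (16 arrays each) were fitted with limma 3.58.1 in R 4.3.3, tested on simulated data, with Benjamini-Hochberg adjustment over all tested probes. The unpaired t-test of the study's methods was an alternative, with its thresholds kept (adjusted p under 0.05 and 1.5-fold). Precision is limited by 4 arrays a group. Other alternatives changed the scaling, background correction, filter, fold minimum and slide term, or left out each array. Array files carried no mean signal, so the normexp correction (offset 50) used the median signal of each spot.

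The 33 genes and the 4 pathway lists were chosen with earlier results of these data known. By rule the text names RPN4 throughout, all genes called where these were 8 or fewer, the 2 largest differences that passed the adjusted p alone, the extremes of each part of the proteasome, and at most 6 called pathway genes a comparison. The other genes were added so that each of the 33 is accounted for or to complete a list, with their values known.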

Additional observations from a re-analysis of the deposited data

Results flagged for a closer look

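In 210 sets of 4 arrays (33 genes and the 2 particle medians in 6 groups), 13 held an array far from the other 3, where chance gives about 1 in 20. Of these, 4 lay on SEF1-VP16 in YPD replicate 1, which was low for RPT1 (1.48 against 1.66 to 1.68 on the other arrays of the group), RPT5 (1.37 against 1.53 to 1.54), RPN10 (1.92 against 2.03 to 2.04) and RPN6 (2.30 against 2.52 to 2.56). Replicate 4 of WT in YPD was low for RPT1 (1.60 against 1.69 to 1.71) and RPN13 (0.29 against 0.50 to 0.54). In sef1 in YPD, RPN5 was high on replicate 1 (−0.038 against −0.17 to −0.16) and RPN7 was low on replicate 2 (−0.11 against 0.02 on the others). In WT in YPGly, PRE8 was high on replicate 2 (1.33 against 1.21 to 1.23) and RPT1 on replicate 3 (1.72 against 1.54 to 1.56). RPT4 was low on sef1 in YPGly replicate 1 (0.22 against 0.32 to 0.33). In SEF1-VP16 in YPGly, PRE8 was low on replicate 1 (1.16 against 1.25 to 1.26) and PRE7 on replicate 4 (−0.0066 against 0.12 to 0.14).

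For 14 gene values the strain difference was not the same in the 2 media by the interaction's adjusted p in limma, all of them short of the fold minimum. With SEF1-VP16 and WT, the change in difference from YPD to YPGly was 0.24 for RPT5, 0.29 for RPN1 and 0.32 for RPN6. With SEF1-VP16 and sef1, it was 0.40 for PRE5, 0.32 for RPT2, 0.29 for RPN6, 0.28 for PRE1, 0.26 for RPN13, 0.25 for RPN8, 0.24 for each of RPT1, RPT5 and PRE3, 0.20 for PUP2 and −0.30 for RPN4. Medium and slide cannot be told apart in these values.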

How the results depend on the processing

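Limits were the 4 arrays a group, 1 strain isolate a genotype and media that lie on different slides. Over all alternatives, 238 counts of called genes stayed within 1.5 times their value, where 0 against 0 was included, and 20 moved beyond that. Of the single-gene values, 1005 kept their direction and their side of the threshold, 32 gained a call, 30 lost a call and 7 changed direction. Without a fold minimum, the number of the 33 genes called was 5 in YPD between SEF1-VP16 and WT, 4 between SEF1-VP16 and sef1, 1 in YPGly between sef1 and WT, 1 between SEF1-VP16 and sef1, and 20, 24 and 19 between the media in WT, sef1 and SEF1-VP16. It was 3 and 11 in the interactions of SEF1-VP16 with WT and with sef1. With a fold minimum of 2 it was 0 between the media in sef1. Between the media in WT it was 2 with the array median, 4 with quantile normalization and 1 with normexp. In sef1 it was 8 with the array median and 8 with quantile normalization, and in SEF1-VP16 1 with quantile normalization. Scaling moved the median of all tested probes by −0.09 to 0.12.

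With the slide as a term, which for the media was added after the data had been seen, 1 gene was called between the media, in place of 0, 4 and 0. The strain differences in this fit come from the within-slide comparisons alone and are the same in both media. Values with another sign than without the slide were thus no test of the differences across slides. In place of the YPD values, SEF1-VP16 against WT was −0.16 for RPN4, 0.10 for RPN6 and 0.18 for TMA17. SEF1-VP16 against sef1 was −0.094 for RPN4 and 0.061 for RPN1. In place of the YPGly value, sef1 against WT was −0.067 for RPN4. Among the pathway genes named, the media differences of CUZ1, PDR1, PDR3, RAD6 and ADD66 ended below the fold minimum. The cause was not tested. Leaving out 1 array gave 3 to 6 genes between the media in sef1 and 0 to 1 in SEF1-VP16, where PRE9 was called (−0.60) without SEF1-VP16 in YPD replicate 1. RPN4 in SEF1-VP16 against WT in YPGly ran from −0.093 to 0.0031, the latter without SEF1-VP16 in YPGly replicate 4.

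The replicate block left the counts at 4 for the media in sef1 and at 0 in the other 11 comparisons. With it the adjusted p was 0.177 for RPN12 in sef1 against WT in YPGly. Same-numbered arrays correlated at −0.44 to 0.54 in their deviations from the group means, and in no comparison were all 4 above 0.1, so the numbers were not taken as pairs. The motif search in promoters and its 7-base form were not run, and the unpaired test of the methods was not run on the interactions. The alternative called normexp used the median spot signal.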
